A study of Zea mays with 12 samples.

Results

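In the primary roots of maize seedlings, 39 nuclear gene models stood well above the N-deprived level both when nitrate was supplied alone and when it was supplied together with PCIB, an inhibitor of auxin action. They were picked from 26061 nuclear gene models, in a table of 26451 entries. On the log2(FPKM + 1) scale, a member had to be at least 0.8 higher in each nitrate group than in each N-deprived group. The nitrate groups had to lie less than 0.8 apart, and the highest group had to reach 5 FPKM. FPKM is a fragment count corrected for the length of the transcript and for the size of the library.

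Seedlings of the inbred line B73 had germinated for 3 days and then grew for 24 h in 1 of 4 nutrient solutions. These were 1 mM nitrate plus 10 µM PCIB, 1 mM nitrate, a solution without nitrogen plus 2 µM TIS108, and, as the N-deprived control, a solution with no nitrogen source. TIS108 inhibits the synthesis of strigolactones, hormones derived from carotenoids. Each group had 3 biological replicates of 4 to 8 pooled plants, 12 samples in all, but the poly(A) RNA data hold 1 FPKM value per gene and group. There was no group with PCIB and without nitrate. In the difference between the PCIB group and the N-deprived control, what nitrate does and what PCIB does therefore cannot be told apart. The comparison with nitrate alone covers PCIB only where nitrate is present. There was also no group with nitrate and TIS108.

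All 4 columns were used to choose the 39 genes. Their differences between groups are therefore a description and not a finding, and 0 tests across replicates were made. These values carry no error or p-value, since replicates were not separate columns, and the depth of the libraries is unknown. In whole roots, a lower value from fewer cells of a type and one from less RNA per cell cannot be told apart. As markers of green tissue, psbA and psaB of the photosystems had at most 1.04 and 0.222 FPKM in any group. Both are organelle genes and the libraries were of poly(A) RNA, so these low values cannot show whether green tissue was present.

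Nitrate is taken up by root transporters, reduced to nitrite and then to ammonium, and assimilated into amino acids. It is also a signal: within hours of its supply, plant roots raise the transcripts of its transport and reduction and of the supply of reducing power. Auxin acts by removing repressor proteins from the promoters of its target genes and drives the formation of lateral roots, and strigolactones modulate root branching and auxin transport. The comparison addressed here is which genes with a higher level under nitrate also have it when auxin action is inhibited. None of the 39 identifiers could be paired with a gene name (0 matched), so the functions of these genes are not stated and they are given by identifier.

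The members ranged widely in level, from below 1 FPKM to above 100 FPKM. With nitrate plus PCIB the lowest value was 5.18, the median 17.8 and the highest 174 FPKM. With nitrate they were 3.51, 18.6 and 284 FPKM. With TIS108 they were 0.149, 4.18 and 64.1 FPKM, and in the N-deprived control 0.201, 4.39 and 59.8 FPKM. The medians of both nitrate groups thus lay close together, as did those of both N-deprived groups. The median over all nuclear gene models was 6.41 FPKM with nitrate plus PCIB, 6.20 FPKM with nitrate, 6.20 FPKM with TIS108 and 6.39 FPKM in the control. The typical member therefore stood above the middle of the table with nitrate and below it without nitrogen. No member was listed at 0 in any group, and none shared all 4 values with another entry.

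**Figure D1:**
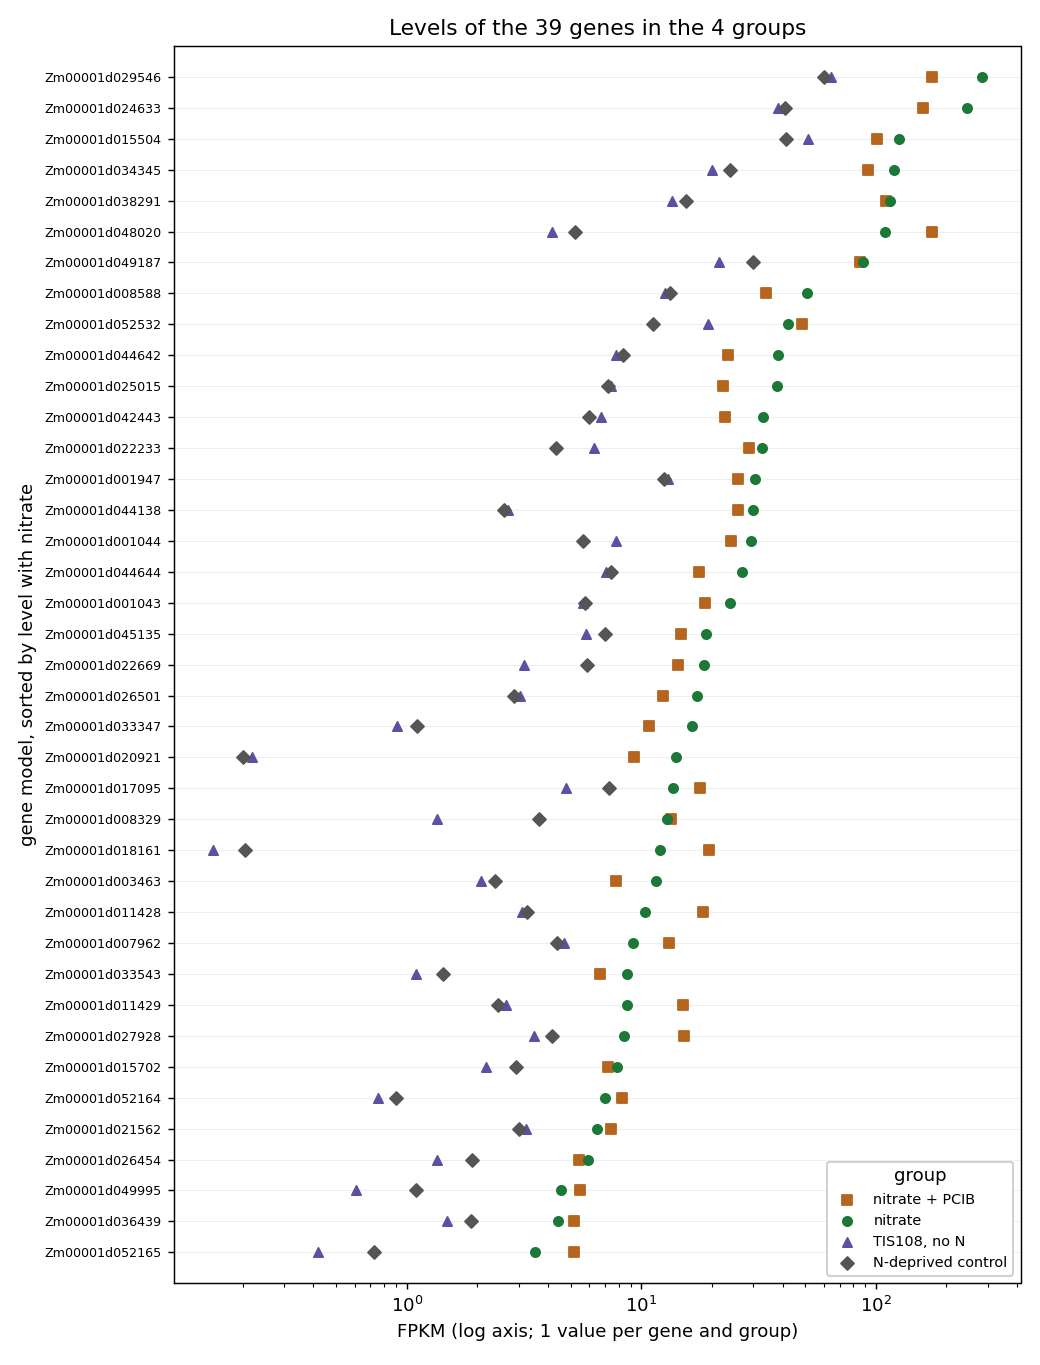
FPKM of each of the 39 genes (rows, sorted by the level with nitrate) on a log axis, with 1 point per group: nitrate plus PCIB, nitrate, TIS108 without nitrogen and the N-deprived control. In every row both nitrate points lie to the right of both N-deprived points, which the choice of the genes required; which nitrate group is the higher changes from row to row.

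Summed over the 39 genes, FPKM was 1418 with nitrate plus PCIB, 1683 with nitrate, 356 with TIS108 and 359.7 in the N-deprived control. These sums are 0.293%, 0.359%, 0.0795% and 0.0723% of the whole column in the same order. The pair of genes with the highest level with nitrate made up 31.4% of the members' sum with nitrate and 28.1% of it in the control. Zm00001d029546 had 174 FPKM with nitrate plus PCIB, 284 FPKM with nitrate, 64.1 FPKM with TIS108 and 59.8 FPKM in the control. Zm00001d024633 had 159 FPKM with nitrate plus PCIB, 245 FPKM with nitrate, 38.2 FPKM with TIS108 and 41.1 FPKM in the control. Both were thus abundant without nitrogen as well and several-fold higher with nitrate. At the other end, Zm00001d052165 had 5.18 FPKM with nitrate plus PCIB, 3.51 FPKM with nitrate, 0.419 FPKM with TIS108 and 0.722 FPKM in the control. Zm00001d036439 had 5.19, 4.41, 1.48 and 1.88 FPKM in the same groups, and both genes reached 5 FPKM only in the PCIB group.

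Against the N-deprived control, the log2 difference with nitrate was 1.87 at the median of the members, from 0.82 to 4.14, and 0.05 at the median of the 15254 nuclear gene models with 5 FPKM or more in either group. Counting a gene as higher when its FPKM + 1 was at least 2-fold that of the control and 5 FPKM or more was reached, 32 of the 39 members were higher with nitrate (36 of the 39 had 5 FPKM or more in either group), against 0.531% of all nuclear gene models tested. The rule used this contrast, so nothing is read from that count. Without the level condition 34 members were at least 2-fold higher and 16 at least 4-fold higher. As plain ratios of FPKM, the nitrate level was 1.88 to 69.9 times the control level, with a median of 4.18.

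The widest nitrate difference in the set was that of Zm00001d048020, at 173 FPKM with nitrate plus PCIB, 109 FPKM with nitrate, 4.18 FPKM with TIS108 and 5.21 FPKM in the control. This gene was modest in level in both N-deprived groups and among the most abundant of the set in both nitrate groups, and its value was higher with PCIB than with nitrate alone. Its log2 difference from the control was 4.81 with nitrate plus PCIB and 4.14 with nitrate. Zm00001d020921 had 9.29 FPKM with nitrate plus PCIB, 14.1 FPKM with nitrate, 0.219 FPKM with TIS108 and 0.201 FPKM in the control, a plain ratio to the control of 46.2 with PCIB and of 69.9 with nitrate. Zm00001d018161 had 19.4 FPKM with nitrate plus PCIB, 12.0 FPKM with nitrate, 0.149 FPKM with TIS108 and 0.205 FPKM in the control, and its plain ratios were 95.0 with PCIB and 58.5 with nitrate. Both Zm00001d020921 and Zm00001d018161 were near 0 without nitrogen, so their ratios rest on very small control values and their log2 differences depend on the pseudocount. By level in the control, 4 members were under 1 FPKM, 16 from 1 to under 5 FPKM, 14 from 5 to under 20 FPKM and 5 at 20 FPKM or more. The median ratio of nitrate to control in these classes was 33.1, 3.53, 4.02 and 4.74. In the lowest class the ratios were 4.86, 7.75, 58.5 and 69.9, so its median is close to none of them. A member in that class still had to reach 5 FPKM in a nitrate group, so the rule itself favoured high ratios there.

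With nitrate plus PCIB, the log2 difference from the control was 1.63 at the median of the members, from 0.97 to 4.81, and 0.00294 at the median of all nuclear gene models tested. By the 2-fold limit 37 of the 39 were higher, against 1.94% of all nuclear gene models tested, and again the rule used this contrast. At least 2-fold over the control in both nitrate groups were 32 members, at least 4-fold 8 and at least 8-fold 3, all without the level condition. The set made up 39.5% of the 81 nuclear gene models higher with nitrate by the 2-fold limit and 12.4% of the 299 higher with nitrate plus PCIB. The comparisons with nitrate and with nitrate plus PCIB share the control column.

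**Figure D2:**
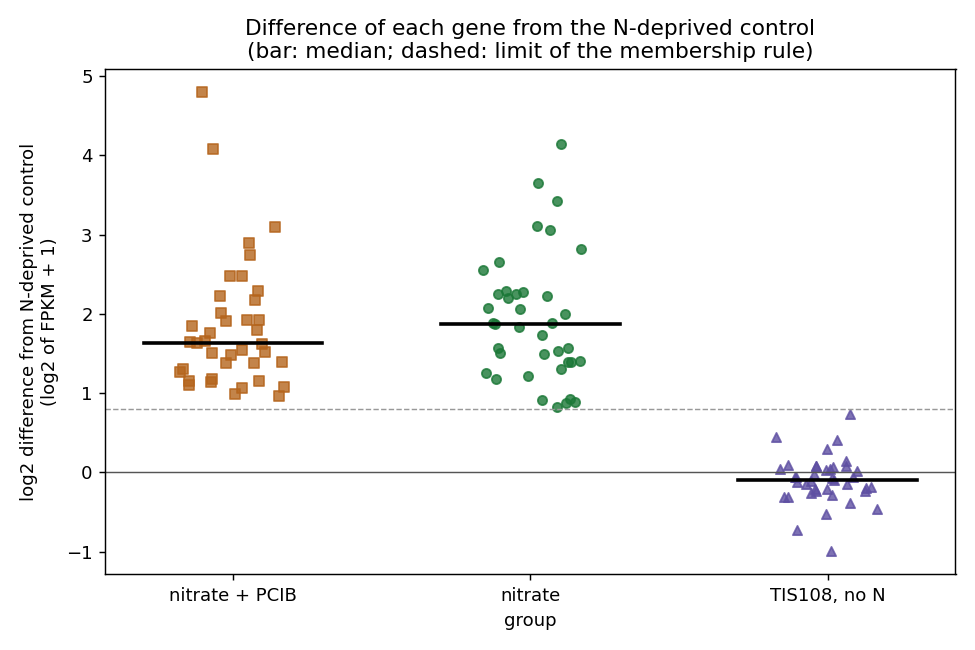
Log2 difference of each of the 39 genes from the N-deprived control (log2 of FPKM + 1, 1 point per gene) for nitrate plus PCIB, nitrate and TIS108; bars are medians, at 1.63, 1.87 and -0.09, and the dashed line is the limit of 0.8 that the choice of the genes set for the nitrate groups. The points of both nitrate groups spread over a similar range above the line and those with TIS108 scatter around 0.

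The 39 genes differed among themselves in how the level with PCIB compared with that under nitrate alone. Relative to nitrate alone, 25 members were lower with nitrate plus PCIB and 14 were higher. The log2 difference was -0.21 at the median and ranged from -0.74 to 0.78, where the rule allowed less than 0.8 either way. The median over all nuclear gene models tested was -0.04. By construction 0 members reached the 2-fold limit in either direction, where 3.76% of all nuclear gene models tested were higher and 0.691% lower. Within 0.3 of the nitrate level were 14 members (35.9%), while 17 were lower by 0.3 or more and 8 higher by 0.3 or more. Among all nuclear gene models tested 71.0% lay within 0.3. The members were chosen for differences between groups that involve both of these columns, so nothing is read from the gap between 35.9% and 71.0%. Measured on the FPKM scale, the gain over the control with nitrate plus PCIB was 84.6% of the gain with nitrate at the median, from 49.1% to 258%.

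The members with the lowest level relative to nitrate had more than the median level of the set. Zm00001d025015 had 22.4 FPKM with nitrate plus PCIB, 38.1 FPKM with nitrate, 7.41 FPKM with TIS108 and 7.20 FPKM in the control, a log2 difference between nitrate plus PCIB and nitrate of -0.74. Zm00001d029546, the gene with the highest level with nitrate, was next at -0.70. On the FPKM scale their gain over the control with PCIB was 49.1% and 51.0% of that with nitrate. At the upper end, Zm00001d027928 had 15.3 FPKM with nitrate plus PCIB, 8.47 FPKM with nitrate, 3.50 FPKM with TIS108 and 4.17 FPKM in the control, a log2 difference of 0.78. Zm00001d011428 had 18.3 FPKM with nitrate plus PCIB, 10.3 FPKM with nitrate, 3.09 FPKM with TIS108 and 3.26 FPKM in the control, a difference of 0.77. For this gene the larger step above the control was the one with PCIB, at a log2 difference of 2.18 against 1.41 with nitrate.

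The members on either side also stood at different levels without nitrogen. The 14 members higher with nitrate plus PCIB than with nitrate had a median of 2.86 FPKM with TIS108 and 3.14 FPKM in the control. The 25 members lower with PCIB had medians of 6.73 and 5.98 FPKM in these groups. With nitrate, 2 of the 14 and 16 of the 25 reached 20 FPKM. The ranges overlapped: in the control the 14 spanned 0.205 to 11.2 FPKM and the 25 spanned 0.201 to 59.8 FPKM. The split was made on the measured PCIB difference and the nitrate level is part of it, so these levels describe the set and were not tested. The minimum level enters it too. The 3 members under 5 FPKM with nitrate met that minimum only through the PCIB group, so they could only fall among the 14. Their levels without nitrogen had to be low as well.

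**Figure D3:**
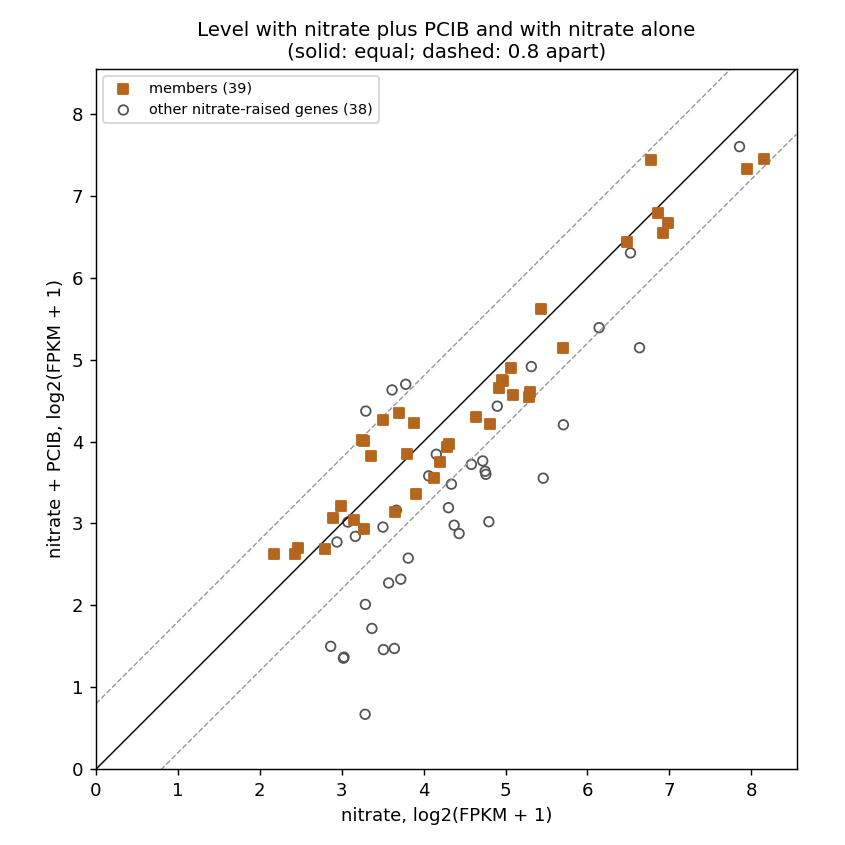
Level with nitrate plus PCIB (vertical axis) and with nitrate (horizontal axis), both as log2(FPKM + 1), for the 39 members (filled squares) and the other 38 nuclear gene models that were at least 0.8 higher with nitrate than in both N-deprived groups (open circles). The solid line marks equal levels and the dashed lines 0.8 either way; members lie between the dashed lines by the rule, and most of the open circles beyond them lie below, on the side where the level with PCIB was lower.

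With TIS108 most members lay near the N-deprived control. The log2 difference was -0.09 at the median, from -0.99 to 0.74, with 14 members above the control and 25 below it, and the median over all nuclear gene models tested was 0.01. When all columns were brought to an equal sum, the split was 20 above and 19 below, and the median of all nuclear gene models moved to 0.16, so no direction is given for the set. Within 0.3 of the control were 28 of the 39 members (71.8%), which include genes below 5 FPKM in both groups, and 73.8% of all nuclear gene models tested. By the 2-fold limit 0 of the 20 members with 5 FPKM or more in either group were higher and 0 were lower, against 0.0198% and 1.75% of all nuclear gene models tested. The rule held the TIS108 level at least 0.8 below both nitrate groups, which limits how far above the control a member could stand here. A gene as high with TIS108 as with nitrate could not be a member.

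A few members departed from the control with TIS108. Zm00001d052532 had 48.3 FPKM with nitrate plus PCIB, 42.4 FPKM with nitrate, 19.3 FPKM with TIS108 and 11.2 FPKM in the control. Its TIS108 level lay between the control and the nitrate level, at 1.73 times the control. Zm00001d022233 had 28.8 FPKM with nitrate plus PCIB, 32.6 FPKM with nitrate, 6.26 FPKM with TIS108 and 4.34 FPKM in the control, a ratio of TIS108 to control of 1.44. In the other direction, Zm00001d008329 had 13.4 FPKM with nitrate plus PCIB, 12.9 FPKM with nitrate, 1.35 FPKM with TIS108 and 3.67 FPKM in the control. Its ratio of TIS108 to control was 0.367, while its levels in the nitrate groups were nearly equal. Zm00001d022669 had 14.3 FPKM with nitrate plus PCIB, 18.6 FPKM with nitrate, 3.17 FPKM with TIS108 and 5.88 FPKM in the control, a ratio of 0.539. In all, 4 members were above the control by 0.3 or more on the log2 scale and 7 were below it by as much.

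TIS108 and nitrate could also be set side by side directly. The TIS108 level was 0.203 times the nitrate level at the median of the members, and the log2 difference ran from -4.41 to -0.81, with -0.03 at the median of all nuclear gene models tested. By the 2-fold limit 34 of the 39 were lower with TIS108 (36 of the 39 had 5 FPKM or more in either group), against 0.547% of all nuclear gene models tested. Against TIS108, 36 of the 39 were higher with nitrate plus PCIB, where 2.78% of all nuclear gene models tested were. Both contrasts were part of the rule. At least 2-fold higher in both nitrate groups than in both N-deprived groups were 31 members.

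**Figure D4:**
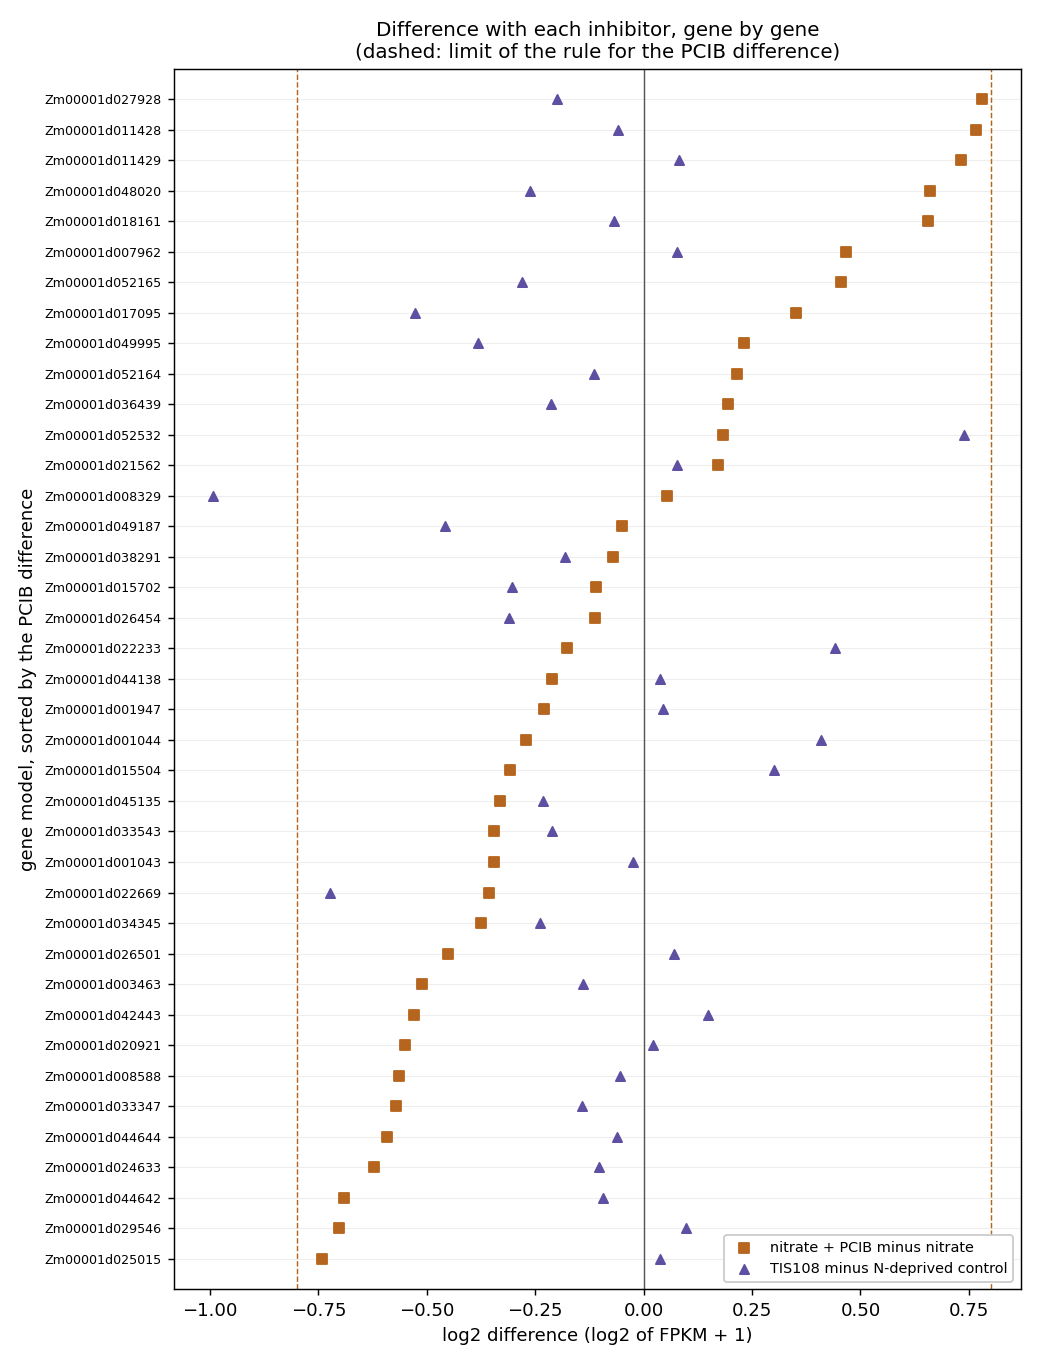
Log2 differences (log2 of FPKM + 1) for each of the 39 genes: nitrate plus PCIB minus nitrate (squares) and TIS108 minus the N-deprived control (triangles), with genes sorted by the PCIB difference. The squares run from -0.74 to 0.78, inside the dashed limits of 0.8 set by the rule, and the triangles from -0.99 to 0.74 with most of them near 0.

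The 39 genes are a part of a larger group. In all, 77 nuclear gene models were at least 0.8 higher with nitrate than in both N-deprived groups and reached 5 FPKM. Beside the 39, there were 23 that were lower with nitrate plus PCIB than with nitrate by 0.8 or more, 3 that were higher by 0.8 or more, and 12 that lay within 0.8 of nitrate but were no longer 0.8 above both N-deprived groups. Of the 23, 4 were still at least 0.8 above both N-deprived groups with PCIB, and 19 were not. The 77 were chosen on a high nitrate value, so these counts are not independent of that choice. Over all nuclear gene models tested, 3.76% were at least 2-fold higher with nitrate plus PCIB than with nitrate and 0.691% lower. These shares use the 2-fold limit and not 0.8, so they are not like for like with the counts of 23 and 3. The median level of the members was 17.8 FPKM with nitrate plus PCIB and 18.6 FPKM with nitrate, and that of the 23 was 6.35 FPKM with nitrate plus PCIB and 18.7 FPKM with nitrate. The medians of the members and of the 23 with nitrate were thus alike, and the rule parts them by the level with PCIB. In a separate count, 16 nuclear gene models met the limits against the control in both nitrate groups but were not 0.8 above TIS108 in both. Their levels in the nitrate groups lay less than 0.8 apart. Zm00001d026859 is among these 16 and also among the 12 above. The medians of the 16 were 9.32 FPKM with nitrate plus PCIB, 10.1 FPKM with nitrate, 5.97 FPKM with TIS108 and 3.83 FPKM in the control.

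The genes nearest to each limit of the rule are given next, where the gene outside is the nearest of those that met all the other limits. Genes that missed more than 1 limit may lie nearer and are not counted here. For nitrate over the control the lowest member was Zm00001d017095 at 0.82, and Zm00001d002071 was just outside at 0.799. For nitrate over TIS108 these were Zm00001d021562 at 0.81 and Zm00001d010662 at 0.71. For nitrate plus PCIB over the control Zm00001d045135 was inside at 0.97 and Zm00001d011965 outside at 0.74, and for nitrate plus PCIB over TIS108 Zm00001d001947 was inside at 0.94 and Zm00001d026859 outside at 0.75. For the distance between the nitrate groups Zm00001d027928 was inside at 0.78 and Zm00001d041067 outside at 0.92. For the highest level Zm00001d052165 was inside at 5.18 FPKM and Zm00001d010136 outside at 4.12 FPKM. Zm00001d011965 was abundant, at 193 FPKM with nitrate plus PCIB, 231 FPKM with nitrate, 107 FPKM with TIS108 and 115 FPKM in the control.

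Some members carry consecutive identifier numbers, a feature the rule did not use. There were 3 such pairs, with 6 members, and these pairs were picked out after the values were seen. The next number was also a listed nuclear gene model for 23 of the 39 members and for 14465 of the 26061 nuclear gene models. How many pairs another set of 39 genes would hold was not tested. Zm00001d001043 had 18.6 FPKM with nitrate plus PCIB, 23.9 FPKM with nitrate, 5.62 FPKM with TIS108 and 5.73 FPKM in the control, and Zm00001d001044 had 24.2, 29.4, 7.80 and 5.62 FPKM in the same groups. Zm00001d011428, described above, was followed by Zm00001d011429 at 15.0 FPKM with nitrate plus PCIB, 8.65 FPKM with nitrate, 2.64 FPKM with TIS108 and 2.44 FPKM in the control. Zm00001d011428 and Zm00001d011429 were among the 3 members with the widest upward PCIB difference, at 0.77 and 0.73. Zm00001d052164 had 8.26 FPKM with nitrate plus PCIB, 6.98 FPKM with nitrate, 0.754 FPKM with TIS108 and 0.900 FPKM in the control, and its partner Zm00001d052165 was given above as the member with the lowest nitrate level. In each pair both genes lay on the same side of the nitrate level with PCIB. Near-identical copies of a gene can share reads, and whether these pairs are copies is not known here, so their values are uncertain to that extent. Among the 38 entries whose number is next to that of a member but which are not members, 0 were 0.8 or more higher with nitrate than in the control, and their median log2 difference was 0.12. Of the 38, 28 had 5 FPKM or more with nitrate or in the control. By the 2-fold limit 0 were higher, against 0.531% of all nuclear gene models tested, so nothing is read from these counts.

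The rule took nuclear gene models alone. Of the 390 other entries, 0 met all of its limits and 2 missed 1 of them. These were the microRNA locus MIR169c, whose family acts on transcripts of NF-YA transcription factors, and an ENSRNA entry with identical values. MIR169c had 5.58 FPKM with nitrate plus PCIB, 8.66 FPKM with nitrate, 3.49 FPKM with TIS108 and 2.65 FPKM in the control, and with PCIB it was 0.55 above TIS108 on the log2 scale, short of the limit of 0.8. It was chosen after its values were seen, and its reads come from a poly(A) library and not from mature microRNA.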

How the data were processed

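The authors deposited 1 table of FPKM values, with 1 column per group named for its treatment per the file headers. The sources used here do not give how the 3 replicates were combined or which program computed the values. The submitters' processing notes name CASAVA 1.8, Trimmomatic 0.39, TopHat2 2.0.13 and the build B73 RefGen_v4 but not their roles. Groups came from the sample titles. There were 0 columns of no group. Depth is unknown.

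Values were used as log2(FPKM + 1), which understates differences of low genes. Ratios are plain ratios of FPKM. A comparison counted nuclear gene models with 5 FPKM or more in either group whose FPKM + 1 differed at least 2-fold. With 1 value per group the planned limma fit over replicates could not be run. The rule was tried on simulated data, but the outcome is not given here and nothing is read from it. Tools were Python 3.11.15, pandas 2.3.3, NumPy 2.4.6 and matplotlib 3.10.9.

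The members, the lists and the alternatives were chosen with earlier results of these data known. Genes named are the 2 members with the widest difference in each direction for every pair of groups, the 2 highest and 2 lowest with nitrate, and the genes nearest to each limit of the rule, with exceptions marked as such. A RefSeq table of another assembly, Zm-B73-REFERENCE-NAM-5.0, matched 0 of the 26061 nuclear identifiers, so the planned lists of nitrate, auxin and strigolactone genes hold 0 genes and no sequence is shown. It gave the names psbA and psaB, while MIR169c is named by its own deposited identifier. Alternatives were other pseudocounts (0.1 and 5), rescaled columns, quantile normalization and other limits of the rule.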

Additional observations from a re-analysis of the deposited data

How the results depend on the processing

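The number of genes meeting the rule was 39 and stayed within 1.5 times of it under all 8 alternatives, from 29 with a pseudocount of 5 (27 of them among the 39) to 45 with limits of 0.6 in place of 0.8 (30 of them among the 39). It was 42 with a pseudocount of 0.1, 39 with columns rescaled to the same sum (37 shared), 38 after quantile normalization, 33 with limits of 1 (31 shared), 42 with no minimum level and 31 with a minimum of 10 FPKM. The same value set the height above the N-deprived groups and the gap allowed between the nitrate groups. Lowering it loosened the first and tightened the second, and raising it did the opposite, so a steady count does not mean steady membership. The members' median log2 difference from the control stayed between 1.42 and 2.04 with nitrate and between 1.15 and 1.85 with nitrate plus PCIB, and that between nitrate plus PCIB and nitrate between -0.25 and -0.19. The median difference between TIS108 and the control was -0.094 and became 0.042 with columns rescaled to the same sum, a setting under which the median of all nuclear gene models was 0.16. With a pseudocount of 5, 27 members were 2-fold higher with nitrate and 25 with nitrate plus PCIB. Of 448 values of the 28 named nuclear genes under the other pseudocounts, rescaled columns and quantile normalization, 14 fell short of the 2-fold limit that the value as reported had passed, 12 came to pass it, 8 small ones changed sign without having been past the limit, and 0 past it changed sign. No paired analysis was possible because the table has 1 column per group and none per replicate, and for the same reason no replicate could be left out.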
